A study of Mus musculus with 2 samples.

Results

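The genes that write, remove and read chemical marks on chromatin, together with the sirtuins and the enzymes that move nucleosomes, were described in normal and diabetic mouse liver. Members were chosen by gene symbol, as the listed genes whose names begin with Hdac, Sirt, Smarc, Kat, Setd, Ezh, Dnmt, Tet, Chd or Kdm followed by the family's numbering, apart from Kdm5c and Kdm5d. This gave 52 of the 8551 genes in the deposited table: 7 histone deacetylases, 7 sirtuins, 2 histone acetyltransferases, 7 SET domain genes, 9 histone demethylases, 2 DNA methyltransferases, 2 Tet dioxygenases, 10 SWI/SNF-related genes and 6 CHD remodellers. No Ezh gene was among the listed genes, and family members outside the table were not analysed here. The label of the group holds only in part, since several members act mainly outside chromatin: Sirt3, Sirt4 and Sirt5 work in mitochondria, Hdac6 acts on tubulin, and Setd3 methylates actin.

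The normal group was wild type male mice and the diabetic group was male db/db mice, whose leptin receptor does not function, so that they grow obese and develop diabetes. Both were 9 weeks old, on a C57BL/6 background and fed chow, and livers were taken about 3 h into the light cycle. The mice came from 2 suppliers, and the study does not say which supplier bred which group or whether the RNA of several mice was pooled. There was 1 library per group, so no difference has a replicate check, and every comparison is between 2 libraries and not between conditions.

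Acetylation of histone tails loosens chromatin and is laid down by acetyltransferases and removed by zinc-dependent deacetylases and by sirtuins, which consume NAD and so tie deacetylation to the energy state of the cell. Methylation of histones and of DNA can mark active or silent genes, and the JmjC demethylases and Tet enzymes that erase it need iron, oxygen and 2-oxoglutarate. SWI/SNF, ISWI and CHD ATPases slide or evict nucleosomes. In liver, Hdac3 with its corepressors restrains lipid synthesis genes, and Sirt1 and Sirt3 act on enzymes and regulators of fasting metabolism.

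The libraries held 10278530 and 13508232 clean tags in the normal and diabetic liver. TPM values give a gene's tags per 1000000 clean tags of the same library, and 1 read was worth 0.0973 TPM in the normal and 0.0740 TPM in the diabetic library. The members had between 12 and 2314 reads in the normal library (median 81.5) and between 18 and 5061 in the diabetic library (median 109.5), and none was undetected. Ratios are diabetic over normal TPM, and brackets give 95% Clopper-Pearson intervals computed from the reads, which cover counting error only. A gene was called when it differed at least 1.5-fold with a false discovery rate (FDR) under 0.001 in an exact binomial test of its reads (two-sided), adjusted over all listed genes. The median log2 ratio of all listed genes was 0.25, and 4 other scalings between the libraries lowered each log2 ratio by 0.25 to 0.31, so it is said below where a call was lost or gained under them.

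The protocol digests the cDNA with DpnII, which cuts at GATC, and the reads are short tags at such sites. The expected tag of each member, the 20 bases that start at the GATC nearest to the 3′ end, was read from the GENCODE M21 transcripts (GRCm38). For 47 members the transcripts gave 1 tag. Chd9, Dnmt1, Dnmt3a, Setd8 and Smarca4 had 2 each, and the tag of the longest transcript was used. All 52 members matched a transcript by Entrez identifier, and 43 expected tags lay in a 3′ UTR and 9 in the coding sequence. The tags below are shown for the members with the largest ratios and for Sirt3, because their values rest on counts of such tags. Capitals mark the DpnII site. They were taken from the annotation and not from the reads, and which tags the authors counted for a gene is not given in the sources used here.
Setd5: GATCcctggtgctgcagtgg
Kdm3a: GATCactgcgaagtttcgtt
Tet2: GATCtgtgatttgcttctat
Chd1l: GATCcagtacctgtaataca
Chd2: GATCagtgttacattgattc
Hdac8: GATCaggttcccagagctgg
Smarcb1: GATCaagataggaacacaag
Setd6: GATCttacatcgggtgttgg
Sirt3: GATCggtaaagtggcatctt
None of the 52 expected tags occurred on the same strand of a transcript of another gene, so tags shared between paralogs were not found for the members at this site. Differing tags of shorter transcripts were not checked. The expected tags of Sirt3 and Kdm1b also lay, on the opposite strand, in transcripts of the neighbouring genes Ric8a and Dek. Whether the counting used strand is not stated, so the values of these members may hold reads of their neighbours. Ric8a, listed as Ric8, had 55 and 60 reads and Dek had 829 and 1181 reads in the normal and diabetic libraries.

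Of the 52 members, 13 were called, which is 25% against 31.0% of all listed genes. Of these, 10 were called higher in the diabetic library, which is 19.2% of the 52 members against 22.9% of all listed genes. Called lower were 3 members, 5.77% against 8.19% of all listed genes. With the deposited values both shares lay below the background, so the number of calls did not set the members apart. Under the other scalings given below, the share called higher lay below the background and the share called lower above it. By the fold change alone, 14 members were at least 1.5-fold higher (26.9% against 34.4% of all listed genes) and 10 at least 1.5-fold lower (19.2% against 15.3%), together 24 members or 46.2% against 49.7%. The members had a median log2 ratio of 0.10, which was below 0 under each of the 4 other scalings. Under TMM scaling, 4 members were called higher and 9 lower (7.69% and 17.3%), where the shares of all listed genes were 14.9% and 13.4%. Under median-ratio scaling 3 were called higher and 11 lower (5.77% and 21.2%), against 13.3% and 14.8% of all listed genes. The 3 members called lower were called lower under every scaling run, but each other scaling lowers every log2 ratio, so this is no check of them. Among the 10 called higher, Chd1l, Chd2 and Tet2 were called under every scaling run, while Hdac3, Hdac8, Hdac11, Setd6, Sirt3 and Smarca5 were not called under any of the 4 other scalings and Smarcb1 was not called under median-ratio scaling.

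The same shares of all listed genes serve as the background of the counts under the other settings. With scaling to the listed genes' sum 4 members were called higher and 9 lower, against 14.6% and 13.6% of all listed genes, and with upper-quartile scaling 4 and 10, against 14.3% and 13.8%. At least 1.5-fold higher or lower were 23.7% and 23.9% of all listed genes with the sum, 24.0% and 23.6% with TMM, 21.9% and 25.6% with the median ratio and 23.4% and 24.3% with the upper quartile. With 1 TPM added to both libraries, 22.5% of all listed genes were called higher and 8.05% lower, and 29.3% and 12% passed 1.5-fold. Among the genes that averaged 5 TPM or more, 30.4% were called higher and 10.6% lower, and 33.4% and 12.4% passed 1.5-fold. At a 2-fold threshold, 14.5% were called higher and 4.53% lower, and 18.6% and 6.81% passed 2-fold. By the Audic-Claverie formula, which called the same 13 members, 22.5% of all listed genes were called higher and 8.23% lower. With an assumed variation of 0.2 between samples, 2.82% were called higher and 0.9% lower, and with 0.4, 0.234% and 0.0936%; of the members, 1 (Setd5) was called at 0.2 and 0 at 0.4.

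**Figure D1:**
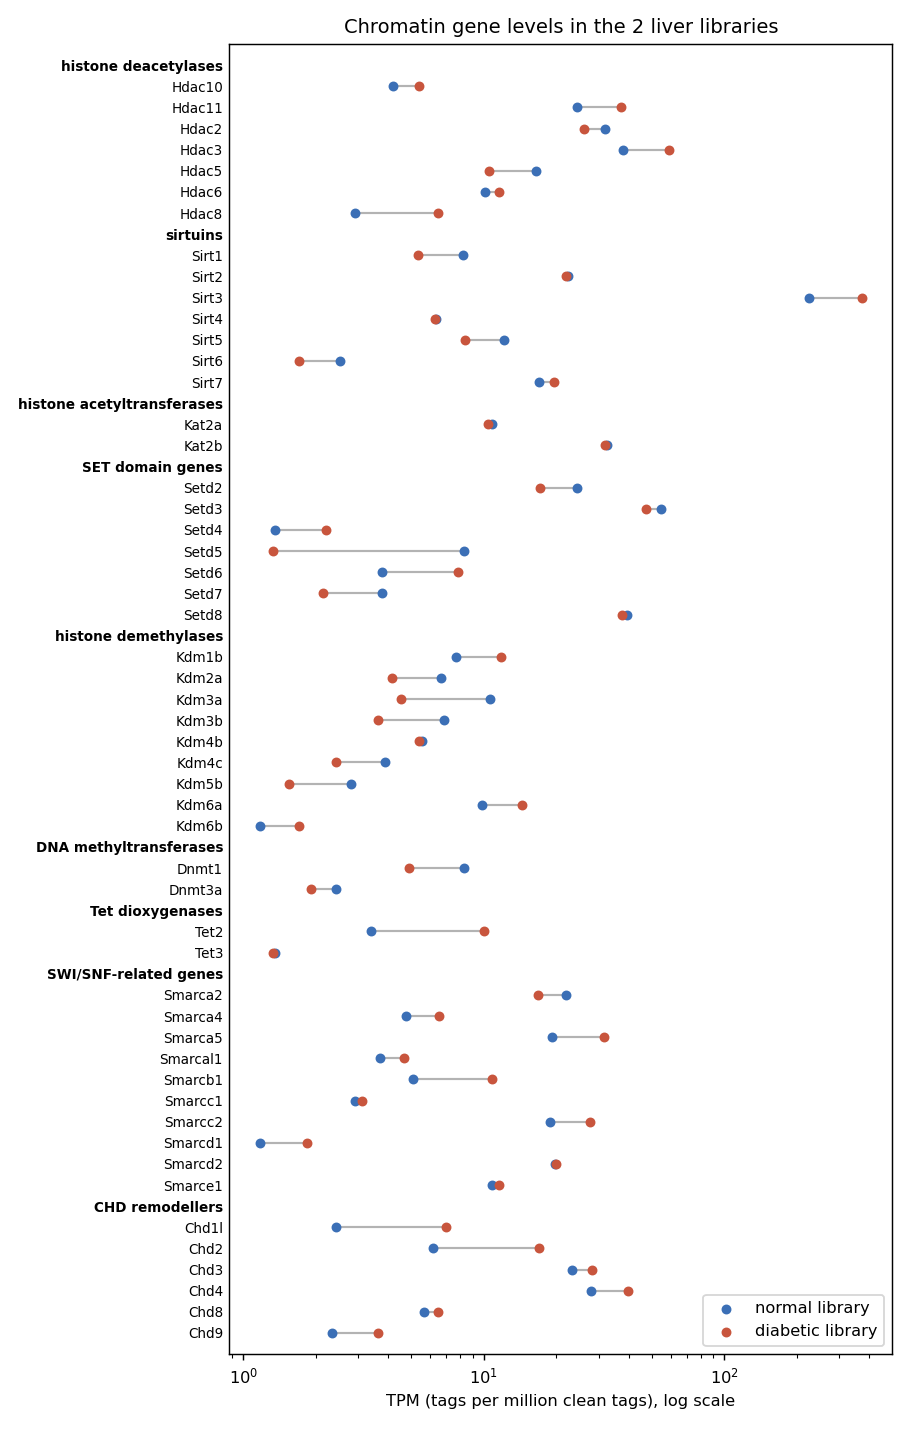
Level of each of the 52 genes in TPM (log scale) in the normal library (blue) and the diabetic library (red), with a grey line between the 2 values of a gene, grouped by enzyme class. The longest line is that of Setd5, from 8.27 to 1.33 TPM, and levels of different genes are not compared.

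Among the zinc-dependent histone deacetylases, 3 of 7 were called higher and 1 lower, where 22.9% and 8.19% of all listed genes were. The median log2 ratio was 0.37, and 4 of the 7 lay above the median of all listed genes. Hdac3, the catalytic subunit of the NCoR and SMRT corepressor complexes, had 391 reads in the normal and 797 in the diabetic library, that is 38.04 and 59.0 TPM. Its log2 ratio was 0.63 (0.46 to 0.81), and under TMM scaling it was 0.38 and not called. Hdac8, another class I enzyme, had 30 and 87 reads (2.92 and 6.44 TPM), a log2 ratio of 1.14 (0.53 to 1.79), which under TMM scaling was 0.89 and not called. The expected tag of Hdac8 lies in the 3′ UTR at GRCm38 chrX:102285114-102285133 on the minus strand. Hdac11, the only class IV member, had 24.42 and 37.09 TPM (251 and 501 reads) and a log2 ratio of 0.60 (0.38 to 0.83). At 1.52-fold it was the called member nearest to the threshold, and under TMM scaling its log2 ratio was 0.35 and not called.

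Hdac5, a class IIa deacetylase that shuttles out of the nucleus when phosphorylated, was the deacetylase called lower, with 16.54 TPM (170 reads) in the normal and 10.51 TPM (142 reads) in diabetic liver, and its log2 ratio was -0.65 (-0.99 to -0.32). Hdac2, the class I partner of the Sin3 and NuRD complexes, had 329 and 352 reads (32.01 and 26.06 TPM), and its log2 ratio of -0.30 (-0.52 to -0.08) was within 1.5-fold. Under median-ratio scaling the log2 ratio of Hdac2 was -0.60 and it was called lower. Hdac2 and Hdac3 thus lay on opposite sides of equality, with intervals that did not overlap. Hdac6 had 104 and 157 reads (10.12 and 11.62 TPM), and its log2 ratio of 0.20 (-0.17 to 0.57) was below 0 under each other scaling. Hdac10, a polyamine deacetylase, had 43 and 73 reads (4.18 and 5.4 TPM) and a log2 ratio of 0.37 (-0.19 to 0.95).

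Of the 7 sirtuins, 1 was called higher and 0 lower, where 22.9% and 8.19% of all listed genes were. The median log2 ratio of the sirtuins was -0.03. Sirt3, the main deacetylase of the mitochondrial matrix, had 2314 reads in the normal and 5061 in the diabetic library, 225.13 and 374.66 TPM. Its log2 ratio of 0.73 (0.66 to 0.81) had the narrowest interval of the members, and under TMM scaling it was 0.48 and below 1.5-fold. The expected tag of Sirt3 lies 65 bases from the 3′ end of its transcript, at GRCm38 chr7:140863715-140863734 on the minus strand, which is also the stretch that overlaps Ric8a. Ric8a had a log2 ratio of -0.27.

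Sirt1, the nuclear sirtuin that deacetylates histones and transcription factors, had 84 reads in the normal and 72 in the diabetic library (8.17 and 5.33 TPM). The log2 ratio of Sirt1 was -0.62 (-1.09 to -0.14), which is 1.53-fold lower and was not called, and under the 4 other scalings it was called lower. Sirt5, the mitochondrial desuccinylase, had 125 and 113 reads (12.16 and 8.37 TPM) and a log2 ratio of -0.54 (-0.92 to -0.16), which is within 1.5-fold, and it was also called lower under those scalings. Sirt6, a chromatin-bound sirtuin, had only 26 and 23 reads (2.53 and 1.7 TPM), and its log2 ratio of -0.57 had an interval of -1.45 to 0.30. At 1.49-fold lower Sirt6 was the member nearest below the threshold on that side, and Sirt1 the nearest past it. Sirt2, which is mainly cytosolic, had 231 and 297 reads (22.47 and 21.99 TPM) and a log2 ratio of -0.03 (-0.29 to 0.22). Sirt4 of the mitochondria had 65 and 85 reads (6.32 and 6.29 TPM) and a log2 ratio of -0.01, with an interval of -0.49 to 0.48. Sirt7 of the nucleolus had 175 and 264 reads (17.03 and 19.54 TPM), a log2 ratio of 0.20 (-0.08 to 0.48) that was below 0 under the other scalings. Among the 3 mitochondrial sirtuins, the intervals of Sirt4 and Sirt5 lay below that of Sirt3 and overlapped each other. The reads of Sirt3 may hold reads of Ric8a, as given above.

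A share of reads within a family does not depend on the scaling between the libraries. Sirt3 took 76.6% of the sirtuin reads in the normal library (95% Wilson interval, 75.1% to 78.1%) and 85.6% in the diabetic library (84.6% to 86.4%). Without Sirt3 the sirtuins summed to 68.7 TPM in the normal and 63.2 TPM in the diabetic library. These intervals cover counting error only, and the shares rest on the reads listed for Sirt3 with its overlap.

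**Figure D2:**
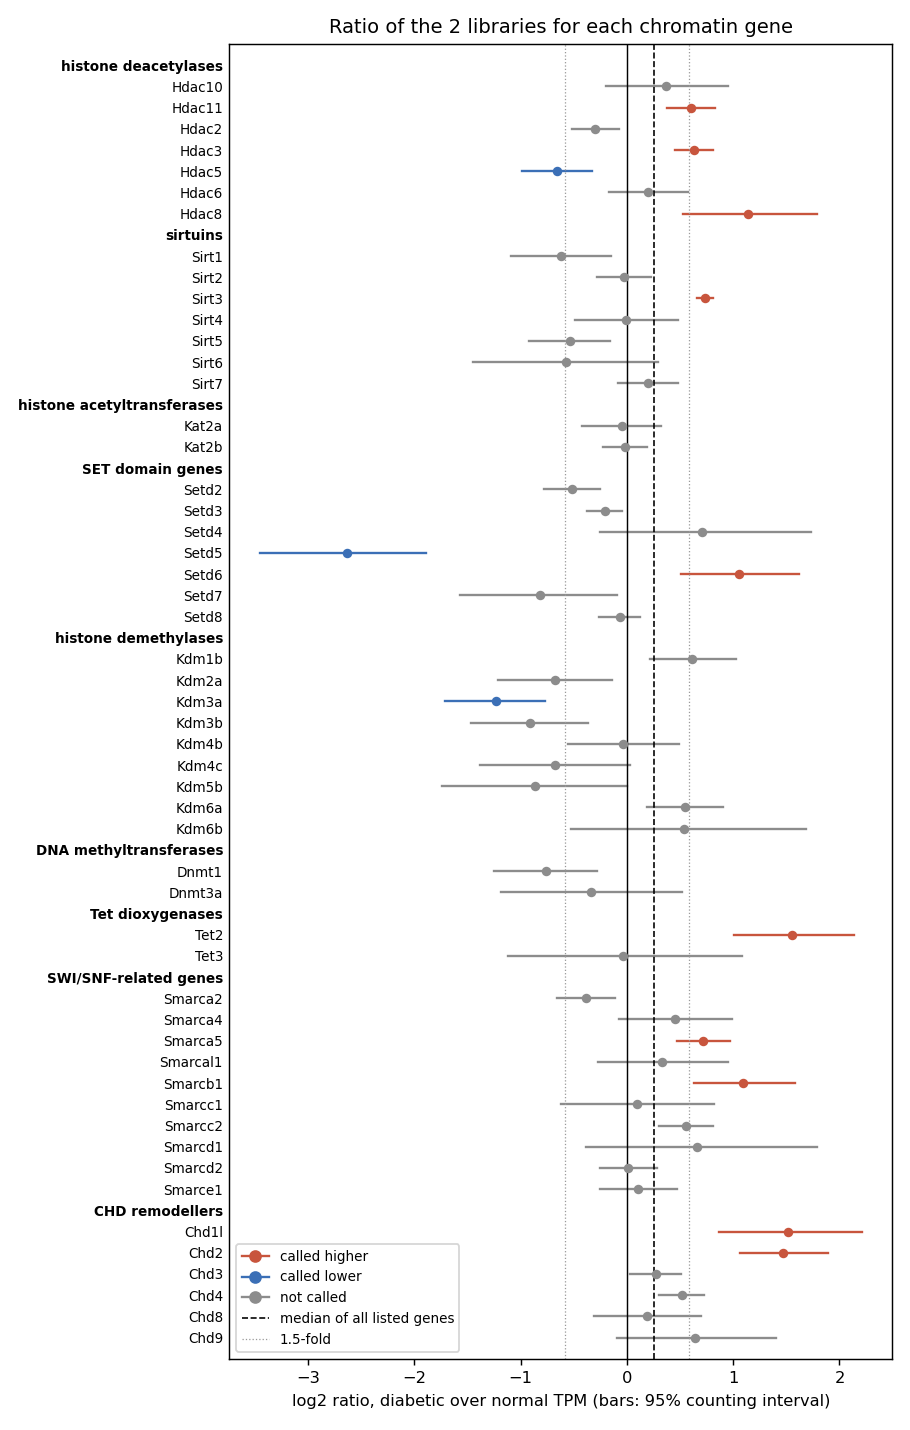
Log2 ratio of diabetic over normal TPM for each of the 52 genes with its 95% counting interval, grouped by enzyme class; red points were called higher, blue points lower and grey points were not called. The dashed line is the median of all listed genes at 0.25 and the dotted lines are 1.5-fold; Setd5 lies farthest to the left at -2.64 and Tet2 farthest to the right at 1.55.

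The acetyltransferases Kat2a and Kat2b, the catalytic subunits of SAGA-type coactivator complexes, were both close to equal. Kat2a had 111 and 141 reads and a log2 ratio of -0.05 (-0.42 to 0.32). Kat2b had 333 and 432 reads and a log2 ratio of -0.02 (-0.23 to 0.19), so with the deposited values a change of 1.5-fold lay outside both intervals. Another 4 acetyltransferases were listed under their older symbols Myst1, Myst2, Myst3 and Myst4, which the rule on symbols does not take. Their log2 ratios ran from -0.46 to 0.51 and none of them was called. Ep300, the large coactivator acetyltransferase, had 22.08 and 15.62 TPM, a log2 ratio of -0.50.

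Of the 7 SET domain genes, 1 was called higher and 1 lower, where 22.9% and 8.19% of all listed genes were. Setd5, a chromatin-associated SET domain protein, had 85 reads in the normal and 18 in the diabetic library, 8.27 and 1.33 TPM. It was 6.22-fold lower in the diabetic library, with a log2 ratio of -2.64 (-3.46 to -1.89), the lowest of the members. The expected tag of Setd5 lies in its 3′ UTR, 687 bases from the transcript end, at GRCm38 chr6:113152749-113152768 on the plus strand. Setd6, which methylates the RelA subunit of NF-kB, had 39 and 106 reads (3.79 and 7.85 TPM) and a log2 ratio of 1.05 (0.51 to 1.62), which under TMM scaling was 0.80 and not called. Its expected tag lies in the coding sequence at GRCm38 chr8:95718748-95718767 on the plus strand. These 2 genes were on opposite sides of equality with intervals far apart.

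Setd2, the methyltransferase that marks the bodies of transcribed genes, had 24.42 TPM (251 reads) in the normal and 17.1 TPM (231 reads) in diabetic liver, and its log2 ratio of -0.51 (-0.78 to -0.25) was within 1.5-fold, and under the 4 other scalings it was called lower. Setd7, a histone H3 monomethyltransferase, had 39 and 29 reads and a log2 ratio of -0.82 (-1.57 to -0.09), and it was not called under any scaling run. Setd3 had 559 and 636 reads and a log2 ratio of -0.21 (-0.37 to -0.04). Setd8, which methylates histone H4, had 404 and 507 reads and a log2 ratio of -0.07 (-0.26 to 0.13). Setd4 had 14 and 30 reads, too few to place its log2 ratio of 0.71 (-0.25 to 1.73) on either side of equality.

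The 9 histone demethylases had the lowest median of the 9 classes, a log2 ratio of -0.67. With the deposited values 6 of the 9 were below 0, and 6 lay below the median of all listed genes. The other scalings lower every log2 ratio, so a ratio below 0 stays below 0 under them by construction. Kdm3a, a JmjC enzyme that removes repressive methyl groups from histone H3 and whose loss makes mice obese, had 109 reads in the normal and 61 in the diabetic library, 10.6 and 4.52 TPM. It was called lower, with a log2 ratio of -1.23 (-1.71 to -0.77). Its expected tag lies in the 3′ UTR at GRCm38 chr6:71589285-71589304 on the minus strand. Its paralog Kdm3b had 70 and 49 reads and a log2 ratio of -0.91 (-1.47 to -0.36). Kdm3b was past 1.5-fold lower but not called, and was called lower under the 4 other scalings. Kdm3a took 60.9% of the reads of the pair in the normal library (53.6% to 67.7%) and 55.5% in the diabetic library (46.1% to 64.4%), so the intervals of the shares overlapped.

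Kdm2a, Kdm4c and Kdm5b were also at least 1.5-fold lower and were not called with the deposited values. Kdm2a, which binds CpG islands, had 68 and 56 reads and a log2 ratio of -0.67 (-1.21 to -0.14), and it was called lower under median-ratio and upper-quartile scaling. Kdm4c, an eraser of the heterochromatin mark, had 40 and 33 reads with an interval of -1.38 to 0.03. Kdm5b, an eraser of the mark of active promoters, had 29 and 21 reads and a log2 ratio of -0.86. Kdm4b with 57 and 73 reads was close to equal at -0.04 (-0.56 to 0.49). Kdm6a and Kdm6b are the JmjC demethylases of the Polycomb mark, and neither was called. Kdm6a had 101 and 194 reads and a log2 ratio of 0.55 (0.19 to 0.91), which is 1.46-fold and was not called. Kdm6b had 12 and 23 reads and a log2 ratio of 0.54 (-0.52 to 1.69). Kdm1b, a flavin-dependent demethylase, was 1.53-fold higher with 79 and 159 reads and was not called, and its expected tag overlaps Dek.

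Of the 4 genes of DNA methylation, Tet2 was called with the deposited values. Dnmt1, which copies methylation to the new strand at replication, had 85 reads in the normal and 66 in the diabetic library, 8.27 and 4.89 TPM. Its log2 ratio of -0.76 (-1.25 to -0.28) was past 1.5-fold lower but not called, and it was called lower under the 4 other scalings. Dnmt3a, a de novo methyltransferase, had 25 and 26 reads (2.43 and 1.92 TPM) and a log2 ratio of -0.34 (-1.19 to 0.51). Tet2, which oxidises methylated cytosine, had 35 and 135 reads (3.41 and 9.99 TPM), a 2.93-fold higher value and the highest log2 ratio of the members at 1.55 (1.01 to 2.13). It was called under every scaling run. The expected tag of Tet2 lies in the 3′ UTR at GRCm38 chr3:133464088-133464107 on the minus strand. Tet3 had 14 and 18 reads (1.36 and 1.33 TPM) and a log2 ratio of -0.03 (-1.12 to 1.09). Tet2 took 71.4% of the reads of Tet2 and Tet3 in the normal library (57.6% to 82.15%) and 88.2% in the diabetic library (82.17% to 92.4%), so the intervals lay next to each other.

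Of the 10 SWI/SNF-related genes, 2 were called higher and 0 lower, where 22.9% and 8.19% of all listed genes were. With the deposited values 9 of 10 had a log2 ratio above 0, and 6 lay above the all-gene median of 0.25. For Smarcc1, Smarcd2 and Smarce1, 3 further subunits with log2 ratios of 0.09, 0.02 and 0.11, the sign turned under each other scaling. Smarcb1, a core subunit of SWI/SNF complexes, had 52 and 146 reads (5.06 and 10.81 TPM) and a log2 ratio of 1.10 (0.63 to 1.58), which under median-ratio scaling was 0.79 and not called. Its expected tag lies in the coding sequence at GRCm38 chr10:75897445-75897464 on the minus strand. Smarca5, the ATPase of ISWI complexes, had 198 and 428 reads (19.26 and 31.68 TPM) and a log2 ratio of 0.72 (0.47 to 0.97), which under TMM scaling was 0.47 and not called. Smarcc2, a scaffold subunit, had 193 and 373 reads (18.78 and 27.61 TPM) and a log2 ratio of 0.56 (0.30 to 0.82), at 1.47-fold the nearest below the threshold on the higher side. Smarcal1, an annealing helicase at stalled replication forks, had 38 and 63 reads and a log2 ratio of 0.33 (-0.27 to 0.96). Smarcd1 had 12 and 25 reads and a log2 ratio of 0.66 (-0.38 to 1.79).

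Smarca2 and Smarca4 are the alternative ATPases of SWI/SNF complexes. Smarca2 had 226 and 227 reads (21.99 and 16.8 TPM), a log2 ratio of -0.39 (-0.66 to -0.12) that was called lower under the 4 other scalings. Smarca4 had 49 and 88 reads (4.77 and 6.51 TPM), a log2 ratio of 0.45 (-0.07 to 0.98). Smarca4 took 17.8% of the reads of both ATPases in the normal library (13.7% to 22.8%) and 27.9% in the diabetic library (23.3% to 33.1%). These intervals did not overlap, whatever the scaling. In contrast, the shares of Kat2a, Chd3, Smarcc1 and Smarcd1 in their pairs had intervals that overlapped between the libraries. For example, Kat2a took 25% of the reads of Kat2a and Kat2b in the normal and 24.6% in the diabetic library.

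**Figure D3:**
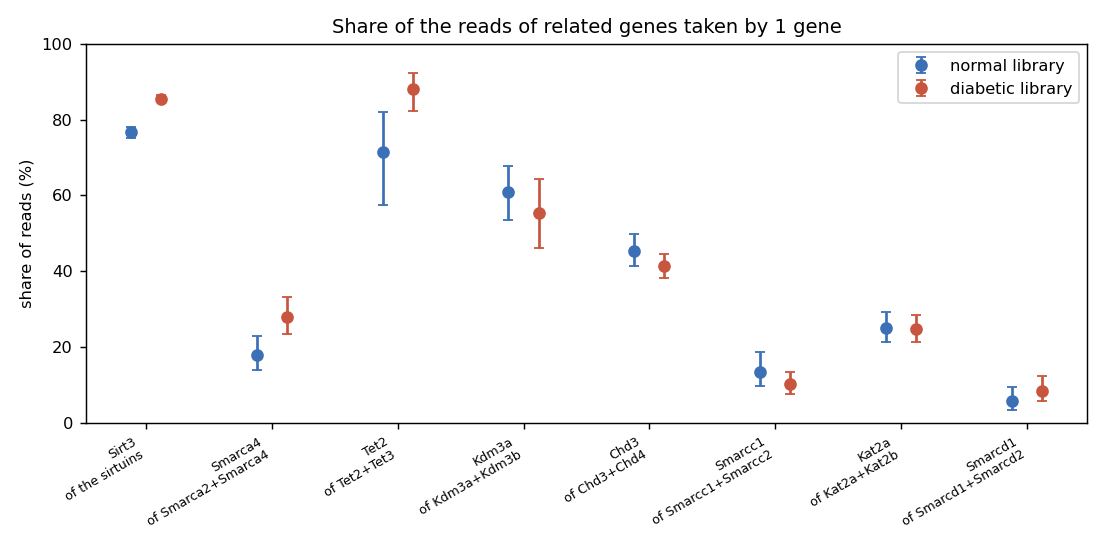
Share of reads (%) of related genes that was taken by 1 gene, in the normal library (blue) and the diabetic library (red), with 95% Wilson intervals that cover counting error only. The intervals are apart for Sirt3 among the sirtuins and for Smarca4 against Smarca2, nearly touch for Tet2 against Tet3, and overlap for the other 5 pairs.

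All 6 CHD remodellers had a log2 ratio above 0, but Chd3 under median-ratio scaling and Chd8 under each other scaling were below 0. Above the all-gene median of 0.25 lay 5 of the 6, and 2 were called higher, where 22.9% of all listed genes were. Chd1l, a remodeller that binds poly(ADP-ribose) at sites of DNA damage, had 25 reads in the normal and 94 in the diabetic library (2.43 and 6.96 TPM), a 2.86-fold higher value with a log2 ratio of 1.52 (0.87 to 2.22). Chd2, a remodeller of transcribed genes, had 63 and 229 reads (6.13 and 16.95 TPM) and a log2 ratio of 1.47 (1.06 to 1.89). Both were called under every scaling run. Their expected tags lie in the 3′ UTR at GRCm38 chr3:97560825-97560844 for Chd1l and chr7:73427492-73427511 for Chd2, both on the minus strand. The NuRD ATPases Chd4 and Chd3 had log2 ratios of 0.52 (0.31 to 0.73) and 0.27 (0.03 to 0.51). Chd8, a repressor of beta-catenin targets, had 58 and 87 reads and a log2 ratio of 0.19 (-0.31 to 0.70). Chd9 with 24 and 49 reads was 1.56-fold higher and not called.

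**Figure D4:**
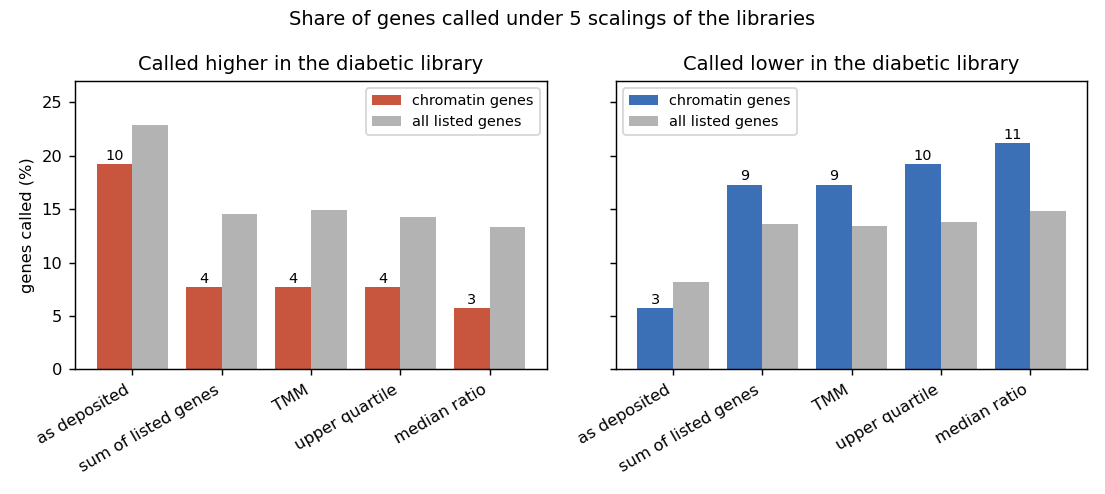
Percent of genes called higher (left) or lower (right) in the diabetic library, for the 52 chromatin genes (coloured bars, with the number of genes above) and for all listed genes (grey bars), with the deposited values and under 4 other scalings. With the deposited values 10 chromatin genes were called higher and 3 lower, and under TMM scaling 4 higher and 9 lower.

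Partners of these enzymes outside the rule were counted from 10 lists holding 258 genes, of which 150 were in the table, each counted once. Of these, 31 were called higher and 13 lower, where 22.9% and 8.19% of all listed genes were, and their median log2 ratio was 0.19. Under TMM scaling 17 were called higher and 23 lower and the median was -0.06, and the called lower also outnumbered the called higher under the 3 other scalings. Of all listed genes, 14.9% were called higher and 13.4% lower with TMM. Each other scaling lowers every log2 ratio, so such a turn follows in part from its construction. Only 7 of 19 SWI/SNF partners were in the table, so their counts cover a part of the list. Of these 7, 5 were called higher and 0 lower, with a median log2 ratio of 0.93, and 3 were called higher under each other scaling. Dpf2 had 89 and 341 reads, a log2 ratio of 1.54, and Actl6a, an actin-related subunit, had 133 and 398 reads, a log2 ratio of 1.19 (0.90 to 1.48). Of the 15 listed NAD enzymes, 8 were called higher and 2 lower, with a median log2 ratio of 0.60. Under each other scaling 5 were called higher and 2 lower, and with TMM the median was 0.35. Nnmt, which methylates nicotinamide, had 829 and 4525 reads, a log2 ratio of 2.05, and Qprt of the de novo NAD pathway had 674 and 2259 reads, a log2 ratio of 1.35. Parp14 with 89 and 58 reads and Nadsyn1 with 253 and 188 reads were called lower. Nampt, an enzyme of NAD synthesis from nicotinamide, had 339 and 775 reads and a log2 ratio of 0.80. Like Naprt1 and Nmnat3, Nampt was not called under TMM scaling.

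Beside the counts below, 22.9% of all listed genes were called higher and 8.19% lower with the deposited values, and 14.9% and 13.4% with TMM. Among 15 listed corepressor and deacetylase complex subunits, 1 was called higher and 2 lower, and 0 and 2 under each other scaling. Rbbp4, a histone-binding subunit shared by NuRD, Sin3 and Polycomb complexes, had 241 and 94 reads, a log2 ratio of -1.75 (-2.11 to -1.40). Mta2 of the NuRD complex had 413 and 272 reads (40.18 and 20.14 TPM). Arid4b had 86 and 193 reads and was called higher, but not under TMM scaling, where its log2 ratio was 0.52. Of 19 Polycomb subunits, Eed with 654 and 554 reads was called lower and L3mbtl2 with 34 and 165 reads was called higher, and the median log2 ratio was -0.38. Under each other scaling 4 Polycomb subunits were called lower and 1 higher, the lower ones with TMM being Eed, Cbx6, Bap1 and Yy1. Of 8 DNA methylation partners, Gadd45a with 19 and 131 reads and Gadd45b with 6 and 40 reads were called higher, and Gadd45g with 615 and 291 reads and Mbd1 with 621 and 430 reads were called lower. All 4 of these calls were also made under TMM scaling. Gadd45b had 0.58 TPM in the normal and 2.96 TPM in the diabetic library. The filter on a mean of 1 TPM thus kept Gadd45b only through the diabetic library, and its call cannot be read apart from that filter.

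Of 27 other genes of histone methyltransferases and their complexes, 6 were called higher, led by Smyd2 with a log2 ratio of 1.76 and Dpy30 with 1.62. Called lower were 2, Prmt1 with -0.91 and Mll3 with -0.74. The balance turned under every other scaling, with 2 called higher and 5 lower with TMM and a median that went from 0.04 to -0.21. Among all listed genes, 22.9% were called higher and 8.19% lower with the deposited values, and 14.9% and 13.4% with TMM. Each other scaling lowers every log2 ratio, so the turn follows in part from its construction. Of 20 other remodeller genes, 3 were called higher and 3 lower, among them Ino80e with 1.01, Actr8 with 0.93, Cecr2 with -1.33 and Baz1b with -1.15, and under each other scaling 2 were called higher and 5 lower. Of 14 histone chaperones and readers, 3 were called higher, led by Trim24 with 1.86 and Trim28 with 0.77, and Supt6h was called lower with -0.94. Under TMM scaling 1 of these was called higher, Trim24, and 2 lower, and Trim28 at 0.52 was not called. The list of other histone demethylases held 10 listed JmjC genes, which are not all established histone demethylases. Mina with 1.24 and Jmjd7 with 1.21 were the 2 of these 10 that were called, both higher. With TMM Jmjd7 at 0.95 was not called. Of 15 acetyltransferase genes outside the rule, 0 were called in either direction with the deposited values and 1 was called lower under each other scaling, which was Ep300 with TMM.

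Other cells of the liver also express chromatin genes, and in a whole-liver library fewer cells of a type and less RNA per cell cannot be told apart. The 8 listed macrophage markers of 12 summed to 327 TPM in the normal and 194 TPM in the diabetic library, 4 of them at least 1.5-fold lower and 1 higher. The 9 endothelial markers summed to 141 and 121 TPM, and the 6 of 8 stellate markers to 109 and 152 TPM. The 3 of 6 cholangiocyte markers summed to 61.5 and 107 TPM, a difference that came from Spp1 (57.21 and 103.12 TPM), while Epcam had 3.21 and 3.04 TPM and Krt7 1.07 and 1.18 TPM. The 3 of 6 B cell markers summed to 98.7 and 156 TPM, nearly all of it Cd74 (93.3 and 152.28 TPM), while Cd79b had 4.67 and 2.44 TPM. Only 1 of 9 T and NK cell markers and 1 of 5 erythroid markers were listed. The 5 listed of 15 markers of dividing cells summed to 19.7 and 49.3 TPM, most of it from Rrm2. Of the 5, 3 were at least 1.5-fold higher and 0 lower: Rrm2, Birc5 (0.97 and 2.44 TPM) and Ccnb2 (0.58 and 2.29 TPM). Birc5 and Ccnb2 were under 1 TPM in the normal library, so the filter on the mean kept them only through the diabetic library. Mcm2 had 2.43 and 3.41 TPM and Mki67 had 1.65 and 1.48 TPM. The 6 of 7 hepatocyte markers summed to 9852 and 9195 TPM, most of it Alb with 6801 and 6912 TPM. Among them Apob was called lower with 804 and 147 TPM, Hnf4a was called lower with 96.8 and 46.19 TPM and Cps1 was called higher with 130 and 317 TPM, and no listed marker was at 0 in either library. The part of these cells in the values of the chromatin genes was not tested.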

How the data were processed

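Digital gene expression tags were measured in 1 normal and 1 diabetic liver library. The authors made cDNA from poly(A) RNA, cut it with DpnII, compared the clean tags with RefSeq and deposited values that they call TPM, which are RPM values, that is tags of a gene per 1000000 clean tags, with 0.01 where a gene had no tag and genes with a mean under 1 left out. The submitters' processing notes name the build mm9, and the aligner and the handling of strand are not given in the sources used here. The unit differs from counts, so whole reads were computed from the equal steps of the values (tolerance 0.005 TPM), and 1 of 8537 values of the diabetic library was not whole. The two-sided exact binomial test used these reads and the library totals, and its p-values were adjusted over 8551 genes by the Benjamini-Hochberg method. It compares 2 libraries, and no variation between mice enters it. Tags carry no molecular identifiers, so intervals cover counting error only. The members and lists were chosen with earlier results of these data known. All members may be named, and of each list the 2 called genes that moved most in each direction. Nampt, Ep300 and the Myst genes were chosen after their values were seen. Ratios were also computed under 4 scalings (sum of listed genes, TMM, median ratio, upper quartile), after adding 0.1 or 1 TPM, for genes averaging at least 5 TPM and at a 2-fold threshold. The reads were also tested by the Audic-Claverie formula and by an exact negative binomial test that assumes a coefficient of variation of 0.2 or 0.4 between samples. The computation was tested on simulated reads. Computations ran in Python 3.11.15 with scipy 1.17.1, numpy 2.4.6 and pandas 2.3.3, and plots were drawn with matplotlib 3.10.9.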

Additional observations from a re-analysis of the deposited data

How the results depend on the processing

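Among the settings that change the ratios, the scaling between the libraries moved the counts of calls and the median most. The assumed variation between samples removed more calls, as given below. With TMM 34 of the 52 members, and with the median ratio 30, kept their direction and whether they were called. Some of these crossed 1.5-fold without being called, such as Kdm1b, whose log2 ratio went from 0.61 to 0.36 with TMM. With the deposited values 10 members were called higher and 3 lower. With scaling to the listed genes' sum, 4 were called higher and 9 lower, the median log2 ratio was -0.16 and 6 were at least 1.5-fold higher. Under TMM scaling 4 were called higher and 9 lower, the median was -0.15 and 6 were at least 1.5-fold higher. Under upper-quartile scaling these values were 4, 10, -0.17 and 6. Under these 3 scalings 15 were at least 1.5-fold lower, against 10 with the deposited values. Under median-ratio scaling they were 3, 11, -0.21 and 6, and 16 were at least 1.5-fold lower. Each scaling subtracts a constant from every log2 ratio, so these shifts follow from their construction. With 1 TPM added, 9 were at least 1.5-fold higher and 6 lower, and with a minimum mean of 5 TPM, which 36 members reached, also 9 and 6. At a 2-fold threshold 6 were called higher, and by the fold alone 6 were higher and 2 lower. The Audic-Claverie test kept all 13 calls. With an assumed variation of 0.2 there were 0 called higher and 1 lower, Setd5, and with 0.4 there were 0 and 0. These assumptions leave too little power with 1 library per group for their counts to bear on stability. No paired analysis was possible because there is 1 library per group, and for the same reason no library could be left out. Depth limits the low members: Smarcd1 and Kdm6b had 12 reads in the normal library, and the intervals of their ratios included equality.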
